A study of Rattus norvegicus with 6 samples.

Results

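Mast cells and the receptor-ligand pair on which they depend were followed through 9 genes, Kit, Kitlg, Cpa3, Cma1, Tpsb2, Tpsab1, Fcer1a, Ms4a2 and Hdc. They were taken by gene symbol from an expression table of 18825 genes, and all 9 were present. Their identifiers in the table are 64030 (Kit), 60427 (Kitlg), 54242 (Cpa3), 25627 (Cma1), 29268 (Tpsb2), 54271 (Tpsab1), 25047 (Fcer1a), 25316 (Ms4a2) and 24443 (Hdc). Messenger RNA came from full-thickness wounds in the back skin of male Sprague–Dawley rats made diabetic with a diet rich in fat and sugar and then with streptozotocin, a toxin of insulin-producing cells. One group of 3 libraries came from wounds treated with DST-MNs, which are microneedles that hold spheroids of dental pulp stem cells regulated by spermidine and TGF-β3. The other 3 libraries, called Control, came from diabetic wounds left untreated, so the effects of needles, cells and agents cannot be told apart. The labels give neither the day of collection nor the species of the stem cells.

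Mast cells are resident immune cells of the dermis that lie near vessels and nerves and empty preformed granules when activated. Their growth and survival depend on KIT, a receptor tyrosine kinase, and on its ligand, stem cell factor, which Kitlg encodes and which fibroblasts, keratinocytes and endothelial cells make. Skin mast cells store histamine, heparin and proteases of 3 kinds, the chymases, the tryptases and carboxypeptidase A3, and they carry the high-affinity receptor for IgE. KIT is also found on melanocytes, and histamine-forming enzyme in some other myeloid cells, so Kit and Hdc mark more than mast cells.

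Library totals ran from 12545206 counts (DST-MNs 3) to 13818548 (Control 3). Pairs of libraries differed by 31.0 to 68.4 times the counting noise within a group (chi-square per degree of freedom) and by 34.1 to 93.3 times between groups, so no library was a copy of another. Levels are given in TPM, transcript abundances scaled for gene length and library size, which allow genes to be compared. Changes are log2 ratios of DST-MNs over Control from counts scaled with TMM factors, in which a value of 1 is a doubling. In bulk tissue, fewer mast cells and less RNA per mast cell cannot be told apart.

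All 8 mast cell markers among the members (the 9 without Kitlg) had counts in every library. Basophils also carry the IgE receptor, and the 2 of their 4 listed markers that were measured, Mcpt8 and Cd200r1l, were near 0. Mcpt8, a protease gene listed here for basophils, had 5, 3 and 2 counts in DST-MNs 1, 2 and 3. It had 0, 1 and 3 counts in Control 1, 2 and 3. The gene listed as Mcpt2, a name used for the protease of mucosal mast cells, had no count in DST-MNs wounds and 0, 1 and 1 counts in Control wounds. RefSeq gives the identifier of that row the name Mcpt1, with both rMCP-1 and rMCP-2 as older names, so which protease it stands for is uncertain.

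Across the 6 libraries Kitlg had the highest mean of the 9 genes at 25.5 TPM, above 74.6% of all genes in the table, followed by Cma1 at 23.9 and Cpa3 at 10.7 TPM. Kit averaged 8.76 TPM, Tpsab1 6.38, Tpsb2 4.84, Hdc 3.26 and Ms4a2 2.30 TPM. Fcer1a was last at 0.963 TPM, above 26.2% of all genes. In the DST-MNs group the order by mean was Cma1, Kitlg, Cpa3, Kit, Tpsab1, Tpsb2, Ms4a2, Hdc and Fcer1a, and in Control wounds it was Kitlg, Cma1, Kit, Tpsab1, Cpa3, Tpsb2, Hdc, Ms4a2 and Fcer1a. Most neighbours in these orders overlapped between libraries. The neighbours that did not were Kit above Tpsab1 and Hdc above Fcer1a in DST-MNs wounds, and Cma1 above Kit and Hdc above Ms4a2 in Control wounds.

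No member passed the test of DST-MNs against Control. Of the 9 genes, 8 had enough counts to be tested, and 0 of these had an adjusted p below 0.05 (quasi-likelihood F test of edgeR, adjusted by Benjamini-Hochberg over 14427 genes), where 0.776% of all genes tested did. DESeq2 and limma-voom also called 0 members. At an unadjusted p below 0.05 there was 1 member, Hdc, against 16.7% of all genes. The groups did not overlap for 2 of the 8, Hdc and Tpsab1, both lower after treatment, which is close to the 22.9% of all genes without overlap. The median log2 change of the 8 genes was 0.16, with 5 positive and 3 negative, and that of all genes tested was 0.0044. The number of genes called among all tested was 112. It was 402 without Control 1 and 14 to 53 without any other library, and no member was called in any of these 6 cases.

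**Figure D1:**
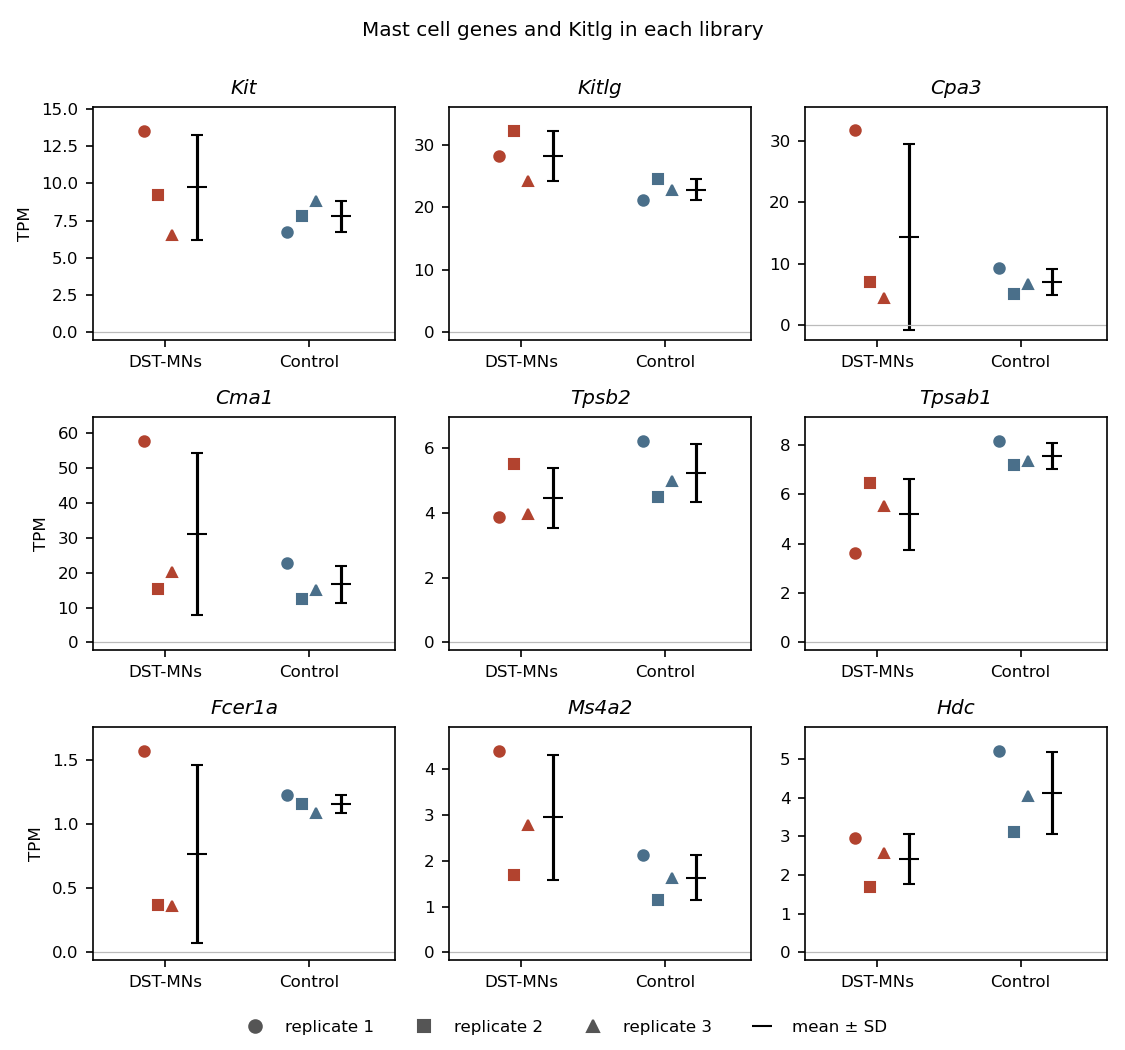
TPM of each of the 9 genes (vertical axes, linear, each with its own scale) in the 3 DST-MNs and 3 Control libraries, where symbols mark the replicate and bars the mean ± SD. Cpa3, Cma1, Kit, Ms4a2 and Fcer1a have their highest point in DST-MNs 1. Tpsab1 and Hdc are lower in all 3 DST-MNs libraries than in any Control library.

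Kitlg, the ligand, varied little. It stood at 28.2, 32.1 and 24.2 TPM in DST-MNs 1, 2 and 3, against 21.2, 24.5 and 22.7 TPM in Control 1, 2 and 3. DST-MNs 3 lay just below the highest Control library, so the groups overlapped. Its log2 change came to 0.15 (SE 0.13; edgeR, adjusted p = 0.591). The 95% interval of the fold was 0.901 to 1.37, the narrowest of the 8, and with 1 library left out the log2 change ran from 0.06 to 0.21. Markers of cells that make the ligand differed in different directions. The 7 keratinocyte markers all had positive changes, with summed levels of 243 to 3889 TPM in DST-MNs wounds and 38.6 to 196 TPM in Control wounds. The 6 fibroblast markers all had negative changes, and their sums were 18934 to 24328 TPM in DST-MNs wounds and 21355 to 28898 TPM in Control wounds. Of 6 endothelial markers 5 were negative, with sums of 314 to 408 TPM in DST-MNs wounds and 344 to 412 TPM in Control wounds. The part of these cells in the level of Kitlg was not tested.

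Kit, the receptor, stood at 13.5, 9.19 and 6.5 TPM in DST-MNs 1, 2 and 3 and at 6.71, 7.84 and 8.79 TPM in Control 1, 2 and 3. DST-MNs 1 was the highest of all 6 libraries and DST-MNs 3 the lowest, so the treated wounds spanned the whole Control range. The log2 change was 0.16 (SE 0.23, adjusted p = 0.758, edgeR), with a 95% interval of 0.768 to 1.63 for the fold. Without DST-MNs 1 the log2 change was -0.11, and without Control 1 it was 0.08. Ligand transcripts exceeded receptor transcripts in every library. The ratio of Kitlg to Kit was 2.09, 3.50 and 3.72 in DST-MNs wounds 1, 2 and 3, against 3.15, 3.13 and 2.59 in Control 1, 2 and 3.

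Melanocytes also carry KIT in skin. Of their 10 listed markers 4 had enough counts for the test, 3 with positive and 1 with negative changes. Slc45a2, a melanosome transporter, was listed at 0 in all libraries, and tyrosinase (Tyr) at 0 in all but DST-MNs 3, where it was 0.04 TPM. The summed level of the list was 26.4 to 31.8 TPM in DST-MNs wounds and 35.2 to 44.5 TPM in Control wounds. The endothelin receptor gene Ednrb, which vessels also express, gave 22.4, 23.2 and 12.9 TPM of it in DST-MNs 1, 2 and 3 and 29.5, 41.9 and 31.4 TPM in Control 1, 2 and 3. Dct, a pigment enzyme, was at 2.52, 0.11 and 1.00 TPM in DST-MNs 1, 2 and 3 and at 0.00, 0.00 and 0.05 TPM in Control 1, 2 and 3. It was highest in DST-MNs 1, as Kit was, and so was Trpm1 at 1.21 TPM. Pmel and Sox10 were highest in DST-MNs 3, at 4.06 and 1.97 TPM, and Mlana in Control 1 at 8.33 TPM. In DST-MNs 1, Pmel, Sox10 and Mlana were at 1.64, 0.51 and 3.37 TPM. The part of melanocytes in the level of Kit was not tested.

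Among the granule proteases, Cpa3 and Cma1 were highest in DST-MNs 1, and both tryptases were lowest there. For Tpsb2 the margin was small, at 31 counts in DST-MNs 1 against 32 in DST-MNs 3. The start regions of these 4 genes are shown because their transcripts went in opposite directions in DST-MNs 1, which is a single library. Each runs from 250 bases before to 50 bases after the RefSeq start of transcription, written on the gene's own strand in the build GRCr8, which is not the build named for the counts. Capitals mark 2 motifs searched on both strands, AGATAA or TGATAA, bound by GATA factors such as GATA2, and CANNTG, the E-box bound by factors such as MITF. Both factors are required for mast cells in mice. Cpa3 lies at chr2:104673188-104673487 (minus strand), Cma1 at chr15:33390084-33390383 (minus), Tpsab1 at chr10:14867253-14867552 (minus) and Tpsb2 at chr10:14886060-14886359 (plus).
Cpa3: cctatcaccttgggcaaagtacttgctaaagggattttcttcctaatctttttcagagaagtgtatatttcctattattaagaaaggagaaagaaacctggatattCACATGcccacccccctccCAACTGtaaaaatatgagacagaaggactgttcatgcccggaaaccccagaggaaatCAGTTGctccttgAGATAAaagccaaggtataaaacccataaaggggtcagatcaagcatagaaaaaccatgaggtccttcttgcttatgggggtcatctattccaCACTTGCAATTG
Cma1: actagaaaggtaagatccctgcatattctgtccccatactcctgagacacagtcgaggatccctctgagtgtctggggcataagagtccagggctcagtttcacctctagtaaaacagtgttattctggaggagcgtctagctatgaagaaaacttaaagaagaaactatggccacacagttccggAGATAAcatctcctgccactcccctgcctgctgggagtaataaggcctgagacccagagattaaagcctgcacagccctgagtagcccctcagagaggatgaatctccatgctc
Tpsab1: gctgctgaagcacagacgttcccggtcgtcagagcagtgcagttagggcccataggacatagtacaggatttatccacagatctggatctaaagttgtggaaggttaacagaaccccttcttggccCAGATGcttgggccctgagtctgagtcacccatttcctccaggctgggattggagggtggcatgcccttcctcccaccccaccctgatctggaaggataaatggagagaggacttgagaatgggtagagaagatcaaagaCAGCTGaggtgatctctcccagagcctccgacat
Tpsb2: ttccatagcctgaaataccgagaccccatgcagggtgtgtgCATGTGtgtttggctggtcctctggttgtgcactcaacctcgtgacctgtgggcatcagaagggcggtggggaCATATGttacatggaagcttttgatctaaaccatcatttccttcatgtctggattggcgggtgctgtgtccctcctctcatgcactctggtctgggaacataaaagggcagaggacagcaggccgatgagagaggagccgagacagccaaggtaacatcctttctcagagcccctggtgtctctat

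A GATA motif was present in the Cpa3 window at -55 and in the Cma1 window at -64 from the start, and in neither tryptase window. Of the 8 members with a start region in the table, 3 held it (Cpa3, Cma1 and Fcer1a), against 18.9% of 33469 start regions. The E-box was in 6 of the 8, with 5 copies in Cpa3, 2 in each tryptase gene and 0 in Cma1, against 72.1% of all start regions. No GATA match overlapped an E-box in these windows. The tryptase genes lie on the same chromosome and point away from each other, with starts 19008 bases apart. Their windows were 57.8% identical in a global alignment, where the other 27 pairs of members gave 44.5% to 56.0%. Gata2 was at 4.13, 7.51 and 6.39 TPM in DST-MNs 1, 2 and 3, its lowest level in DST-MNs 1. In Control 1, 2 and 3 it was at 5.73, 6.01 and 4.79 TPM. Mitf was at 14.72, 18.46 and 19.55 TPM in DST-MNs 1, 2 and 3. Its levels in Control 1, 2 and 3 were 15.6, 9.76 and 10.47 TPM. The motif matches describe letters in a window only, and their part in the transcript levels was not tested.

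Cpa3, which encodes carboxypeptidase A3, had 364, 78 and 50 counts in DST-MNs 1, 2 and 3 (31.8, 6.94 and 4.33 TPM), against 116, 61 and 77 counts in Control 1, 2 and 3 (9.33, 5.07 and 6.68 TPM). DST-MNs 1 was 3.41 times the next highest library, and DST-MNs 3 was the lowest of all. The log2 change was 0.82 (SE 0.70, adjusted p = 0.599, edgeR), and the 95% interval of the fold, 0.550 to 5.65, was the widest of the 8. Without DST-MNs 1 the log2 change was -0.45, and with any other library left out it was 0.63 to 1.24.

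Cma1 encodes the alpha-chymase of connective tissue mast cells, also known as Mcpt5. Its levels were 57.8, 15.4 and 20.1 TPM in DST-MNs 1, 2 and 3 and 22.7, 12.4 and 14.9 TPM in Control 1, 2 and 3. DST-MNs 1 was 2.54 times the next highest library, which was Control 1, and the other treated libraries lay inside the Control range. Over both groups its log2 change came to 0.71 (SE 0.51; edgeR, adjusted p = 0.528). Without DST-MNs 1 it was -0.02, and with any other library left out it was 0.53 to 1.05.

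A further chymase, listed as Mcpt1l1, for which RefSeq gives the older names Mcpt1 and rMCP-1, is no member and was looked up after the values were seen, as one of 9 genes whose symbols begin with Mcpt. It exceeded every member in each library, at 117, 58.1 and 52.8 TPM in DST-MNs 1, 2 and 3, against 42.3, 32.4 and 34.5 TPM in Control 1, 2 and 3. All treated wounds lay above all Control wounds. Fitted in the same way, its log2 change came to 0.88 (SE 0.29; edgeR, adjusted p = 0.215), and 0.48 without DST-MNs 1. The other 8 genes of that name had at most 6 counts in any library, and how reads were shared among these close copies is not given in the sources used here.

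Tpsab1, a tryptase gene also called Mcpt7, was at 3.62, 6.45 and 5.51 TPM in DST-MNs 1, 2 and 3, against 8.16, 7.2 and 7.34 TPM in Control 1, 2 and 3. All treated wounds lay below all Control wounds. Counts were low, 34, 59 and 52 in DST-MNs 1, 2 and 3 and 83, 71 and 69 in Control 1, 2 and 3. The log2 change was -0.69 (SE 0.31, adjusted p = 0.323, edgeR), with a 95% interval of 0.375 to 1.03 for the fold. Without DST-MNs 1, the lowest library, it was -0.46.

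The second tryptase gene, Tpsb2 or Mcpt6, was at 3.87, 5.51 and 3.96 TPM in DST-MNs 1, 2 and 3 and at 6.21, 4.5 and 4.97 TPM in Control 1, 2 and 3. DST-MNs 2 lay above both Control 2 and Control 3, so the groups overlapped. Its log2 change came to -0.39 (SE 0.29; edgeR, adjusted p = 0.545), and -0.22 without Control 1. The 2 tryptases are close relatives, and how the counting shared reads between them is not given in the sources used here. Their counts were whole numbers in all 6 libraries.

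**Figure D2:**
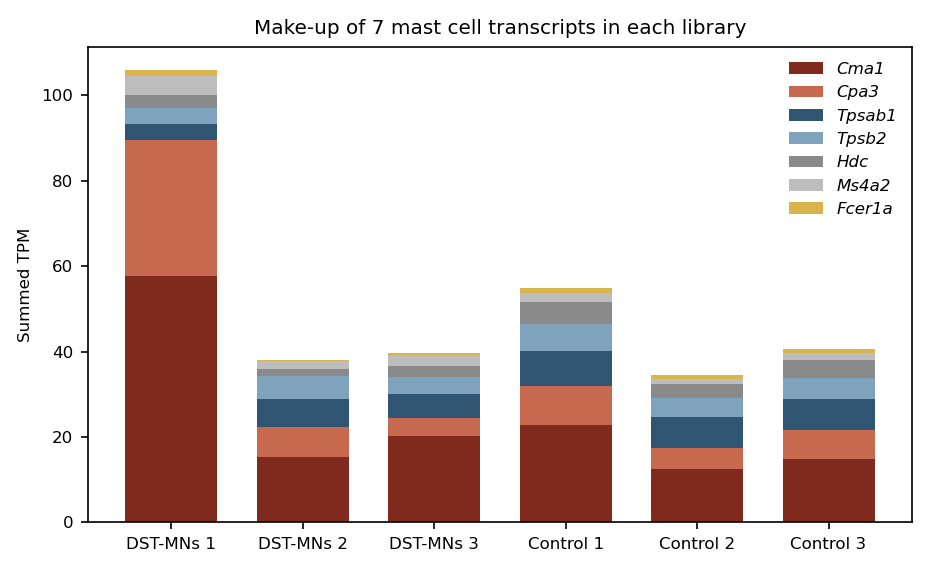
Summed TPM of 7 mast cell genes (vertical axis, linear, from 0) in each library, split by gene. DST-MNs 1 reaches 106 TPM, 84.5% of it Cma1 and Cpa3, while the other 5 libraries lie between 34.6 and 55.0 TPM.

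Set together, the 7 genes other than Kit and Kitlg summed to 106, 38.1 and 39.6 TPM in DST-MNs 1, 2 and 3 and to 55.0, 34.6 and 40.7 TPM in Control 1, 2 and 3. Apart from DST-MNs 1, the treated wounds lay within the Control range. Cpa3 and Cma1 made up 84.5%, 58.7% and 61.7% of that sum in DST-MNs 1, 2 and 3, against 58.3%, 50.6% and 53.1% in Control 1, 2 and 3. The tryptases held 7.07%, 31.4% and 23.9% in DST-MNs wounds 1, 2 and 3, against 26.1%, 33.8% and 30.3% in Control 1, 2 and 3. The same library had the highest summed keratinocyte markers, 3889, 243 and 1199 TPM in the treated libraries 1 to 3, against 196, 38.6 and 178 TPM in Control 1, 2 and 3. Fibroblast markers had their lowest sum there, 18934 TPM. Whether the tissue make-up of that library bears on its mast cell transcripts was not tested.

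The IgE receptor is built of an alpha, a beta and a gamma chain. Fcer1g, the gamma chain gene, which other myeloid cells also express and which is no member, was at 602, 698 and 485 TPM in DST-MNs 1, 2 and 3 and at 552, 585 and 379 TPM in Control 1, 2 and 3. It was far above the genes of both other chains in every library, and its groups overlapped. Ms4a2 encodes the beta chain, which amplifies the signal, and stood at 4.40, 1.69 and 2.78 TPM in DST-MNs 1, 2 and 3 and at 2.14, 1.14 and 1.63 TPM in Control 1, 2 and 3. DST-MNs 2 lay inside the Control range and the other treated libraries above it. For this chain the log2 change was 0.66 (SE 0.41, adjusted p = 0.463, edgeR), 0.35 without DST-MNs 1 and 0.95 without DST-MNs 2.

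Fcer1a encodes the alpha chain, which binds IgE, and had too few counts for the test. It had 13, 3 and 3 counts in DST-MNs 1, 2 and 3, against 11, 10 and 9 counts in Control 1, 2 and 3. DST-MNs 1 lay above every Control library and the other treated libraries below every one. An exact Poisson 95% interval for 3 counts runs from 0.619 to 8.77 and that for 9 counts from 4.12 to 17.1, and both cover counting error only. The ratio of scaled counts summed over each group was 0.599 (95% counting interval 0.319 to 1.10). When genes with low counts were kept, its log2 change came to -0.77 (SE 0.64; edgeR, adjusted p = 0.609). In TPM, the ratio of Fcer1a to Ms4a2 was 0.357, 0.219 and 0.129 in DST-MNs wounds 1, 2 and 3, against 0.575, 1.02 and 0.669 in Control 1, 2 and 3. Every treated library lay below every Control library in this ratio, which was chosen after the values were seen and rests on the few counts of Fcer1a.

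Hdc encodes histidine decarboxylase, the enzyme that makes histamine. Its levels were 2.96, 1.69 and 2.57 TPM in DST-MNs 1, 2 and 3, against 5.20, 3.10 and 4.04 TPM in Control 1, 2 and 3. All treated wounds lay below all Control wounds, by a small margin between DST-MNs 1 and Control 2. Its fitted log2 change was -0.92 (SE 0.33), a fold of 0.527 with a 95% interval of 0.305 to 0.910. The unadjusted p was 0.0278 and the adjusted p from edgeR was 0.241. Among the other 16 settings tried, the adjusted p ran from 0.158 to 0.443 and the log2 change from -1.09 to -0.58, so the direction held in each and the call in none. In DST-MNs 1, Hdc lay below every Control library while Cpa3 and Cma1 lay above all of them.

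**Figure D3:**
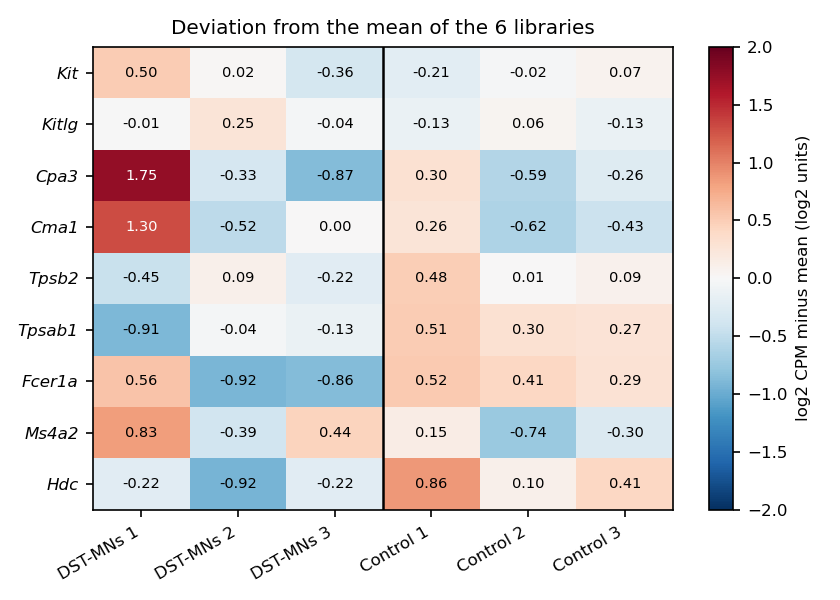
Deviation of each gene's log2 CPM from its mean over the 6 libraries, in log2 units (red above, blue below the mean), with the DST-MNs libraries left of the line and the Control libraries right of it. In DST-MNs 1 Cpa3 is at 1.75 and Cma1 at 1.30, while Tpsab1 is at -0.91 and Tpsb2 at -0.45.

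Correlations between members are a description over 6 libraries, in which both genes of a pair share library, depth and group. Tpsb2 and Tpsab1 had a Pearson correlation of log2 CPM of 0.89, and 0.80 over the 5 libraries without DST-MNs 1. Cma1 and Ms4a2 gave 0.91, and 0.87 without that library. For Cpa3 and Cma1 the value was 0.89 with all libraries and 0.42 without DST-MNs 1. Cpa3 and Tpsab1 were at -0.66, and at 0.76 without that library, so their opposition rested on it. Kit and Kitlg were at 0.15.

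The genes most like Kit over the 6 libraries, by the same measure, were Klhl25 (0.99), Knop1 (0.98), Tmx2 (0.98), Dtwd2 (0.98) and Nhs (0.98). Those most like Kitlg were Pik3cd (0.99), LOC100911357 (0.99), Cd226 (0.98), Srsf12 (0.97) and B4galt6 (0.97). Cpa3 was followed most closely by Vgll4 (0.99), Tbccd1 (0.98), Sec61a2 (0.98), LOC100302465 (0.98) and Sdha (0.98). With 6 points such values are common, and 145, 49 and 128 of 14419 genes exceeded 0.9 with Kit, Kitlg and Cpa3. Pik3cd encodes a catalytic subunit of the kinase PI3K and is also in the list of KIT signalling genes.

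Among other genes of mast cells, of 23 listed, 15 could be tested, and 0 were called higher and 0 lower (edgeR), with a median log2 change of 0.21. Without adjustment, 2 of them were higher and 3 lower at p below 0.05, against 9.8% higher and 6.88% lower of all genes tested. These shares also stand behind the unadjusted counts of the lists that follow. Enpp3, an ectonucleotidase used to mark activated mast cells and basophils, had a log2 change of -1.18 (adjusted p = 0.0556, edgeR), at 60.1, 61.0 and 63.3 TPM in DST-MNs 1, 2 and 3, against 112, 157 and 108 TPM in Control 1, 2 and 3. It was called by DESeq2 (adjusted p = 4.49e-07), and by edgeR without Control 1 (adjusted p = 0.048). DESeq2 called 1018 of all genes (7.06%) where edgeR called 112, and edgeR without Control 1 called 2.74%. The level of Enpp3 exceeded that of Cpa3 in every library, and which cells gave these transcripts was not tested.

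Hpgds, the prostaglandin D2 synthase of mast cells and some macrophages, was at 5.98, 2.63 and 3.15 TPM in DST-MNs 1, 2 and 3, against 1.87, 1.43 and 1.88 TPM in Control 1, 2 and 3. Its log2 change was 0.84 (adjusted p = 0.195, edgeR), and its estimated counts were not whole in any of the 6 libraries. Srgn, which encodes the proteoglycan core serglycin of granules in many leukocytes, had a log2 change of -1.09 (adjusted p = 0.212, edgeR), and DESeq2 called it (adjusted p = 0.0271). Its levels were 70.0, 134 and 54.2 TPM in DST-MNs 1, 2 and 3, against 160, 210 and 121 TPM in Control 1, 2 and 3. The groups overlapped, as DST-MNs 2 lay above Control 3. Mrgprx2, a receptor gene of the same list, was at 3.87, 3.06 and 3.06 TPM in DST-MNs 1, 2 and 3. In Control 1, 2 and 3 it was at 2.20, 0.76 and 0.57 TPM. All treated wounds lay above all Control wounds. The log2 change was 1.32 (adjusted p = 0.282, edgeR), and without Control 1 it was 2.18 and passed (adjusted p = 0.0318).

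Downstream of the IgE receptor, 13 of 13 listed genes were tested, with 0 called in either direction and a median log2 change of 0.03, and 1 was higher at an unadjusted p below 0.05. Plcg2, a phospholipase that releases calcium, had one of 0.64 (adjusted p = 0.0928, edgeR) and was called by DESeq2 (adjusted p = 0.00562). The kinases Syk and Btk were at 0.29 and 0.27, and the phosphatase Ptpn6 at 0.31, with adjusted p from 0.405 to 0.473. Of the 14 genes listed downstream of KIT, 0 were called and the median was -0.15, with 1 higher and 2 lower before adjustment. Pik3r1, the regulatory subunit of PI3K, was at 0.38 (adjusted p = 0.173, edgeR) and was called by DESeq2 (adjusted p = 0.0307). The adaptor Shc1 was at -0.35, the inhibitor Spred1 at -0.31 and Socs1 at -0.54, with adjusted p from 0.263 to 0.451.

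Growth and alarm signals for mast cells had a median log2 change of -0.39 over 5 tested of 11 listed genes, 4 of them negative and 0 called, with 1 lower before adjustment. Csf2rb, the shared receptor chain for interleukin 3 and related cytokines, was at -0.58, Il33 at -0.39 and Tslp at -0.39, with adjusted p from 0.355 to 0.581 (edgeR). Among genes that handle or sense histamine, 4 of 8 were tested and 0 called, with 1 higher before adjustment. The receptor gene Hrh3 was at 1.06, 0.63 and 0.73 TPM in DST-MNs 1, 2 and 3, against 0.25, 0.13 and 0.09 TPM in Control 1, 2 and 3. All treated wounds lay above all Control wounds, on at most 24 counts in a library. Its log2 change was 2.28 (adjusted p = 0.106, edgeR). Hrh1, the receptor of vessels and nerves, was at -0.49 (adjusted p = 0.426), the transporter Slc22a3 at 0.73 (adjusted p = 0.526) and Slc18a2, which loads histamine into granules, at -0.04 (adjusted p = 0.937), which was 0.08 with total counts.

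Lists for other cells of the wound were read in the same way, and 0 of their tested genes were called by edgeR. Before adjustment, 6 keratinocyte genes were higher, and 2 endothelial, 2 fibroblast and 1 melanocyte gene lower at p below 0.05. DESeq2 called Krt1, Dsp, Krt10, Vwf, Pdgfra, Fbln1 and Ednrb, against 7.06% of all genes. The fit with a replicate block, which called 0.853% of all genes, called Dsp, Krt14, Krt5 and Tp63. Leukocyte genes as a whole had a median log2 change of 0.08 over 4 genes, with the common leukocyte antigen Ptprc at 0.42, Coro1a at 0.09, Cd53 at 0.07 and Laptm5 at 0.03. With 1 library left out, that median ran from -0.05 (without Control 3) to 0.22. The keratinocyte median was 3.81 over 7 genes, with Krt1 at 5.82, Dsp at 4.60, Krt10 at 4.13 and Krt14 at 3.66. Endothelial genes were at -0.34 over 6, with Vwf at -0.70, Pecam1 at -0.49, Cdh5 at -0.41 and Cldn5 at 0.89. The fibroblast median was -0.55 over 6, with Pdgfra at -0.77, Fbln1 at -0.61, Dcn at -0.57 and Lum at -0.52. Melanocyte genes were at 0.17 over 4, with Ednrb at -0.97, Sox10 at 1.48, Mlana at 0.23 and Pmel at 0.10. With 1 library left out, that median ran from -0.31 (without DST-MNs 3) to 2.87 (without Control 1), and Sox10 from 0.89 to 3.17. Basophil genes had 0 tested of 4 listed, and Prss34 and Il4 were not among the genes measured. The sums of the other 2, Mcpt8 and Cd200r1l, were 0.51 to 0.91 TPM in DST-MNs wounds and 0.19 to 0.60 TPM in Control wounds.

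**Figure D4:**
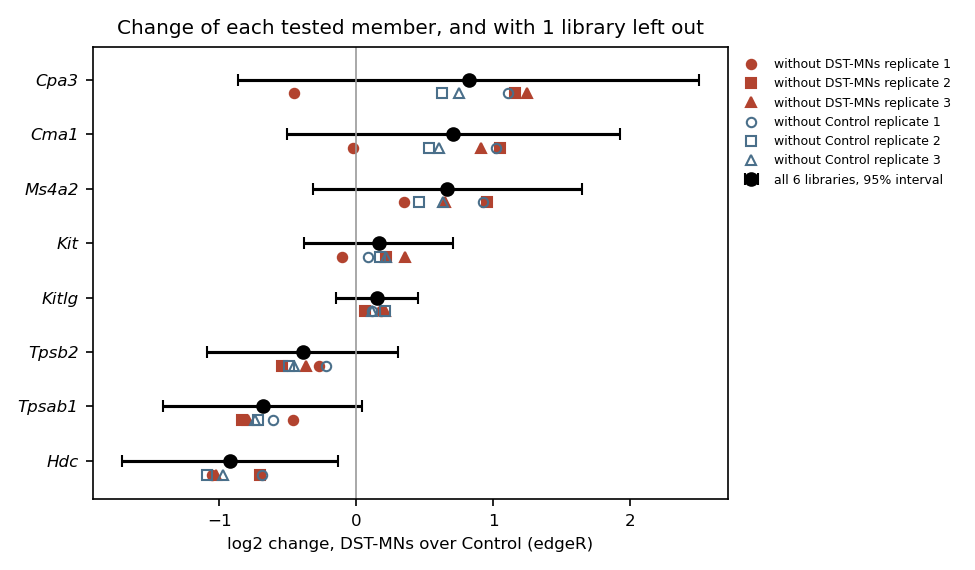
Log2 change of the 8 tested genes, DST-MNs over Control, from edgeR (black points with 95% intervals) and with each library left out in turn (smaller symbols below). Hdc is the only gene whose interval lies wholly on one side of 0, and the points for Cpa3, Cma1 and Kit cross 0 when DST-MNs 1 is left out.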

How the data were processed

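RNA of 6 wound samples was extracted with TRIzol and sequenced as messenger RNA libraries in read pairs on a DNBSEQ-T7, per the labels' protocols. Each group has 3 biological replicates by the labels, which tie none to an animal, so p-values measure the spread between these samples. The authors deposited estimated counts per gene, unscaled per the file headers, and TPM values that sum to 1000000 per library. The submitters' processing notes name the build mRatBN7.2. Aligner and counter were not given in the sources used here. The other columns of the table, FPKM and scaled counts, were not used.

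Estimated counts were rounded. Genes passing filterByExpr (minimum count 10) were scaled with TMM and tested with edgeR 4.0.16 in R 4.3.3 (glmQLFit, glmQLFTest), with Benjamini-Hochberg adjustment over 14427 genes and a threshold of 0.05. The SE is the log2 change over the square root of F, with a prior count of 2 in log2 CPM. The code was tested on simulated counts. DESeq2 1.42.0 and limma 3.58.1 served as alternatives, with other scalings and filters, a replicate block, log2(TPM + 1) and log2(TPM + 0.1) at a mean TPM of at least 1, and each library left out. Members, lists and rules were chosen with earlier results of these data known. Named were all 9 members, up to 4 genes of each of 11 lists by smallest p (1 of these is not reported here), and the 5 genes most correlated with Kit, Kitlg and Cpa3. Gata2 and Mitf were named because of the motifs. Of 106 list entries, 96 matched by symbol and 2 by identifier. Start regions were RefSeq's, of GRCr8, matched by gene identifier for 8 of 9 members and aligned with Biopython 1.88. Figures used matplotlib 3.10.9.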

Additional observations from a re-analysis of the deposited data

How the results depend on the processing

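No member passed in any of the 16 alternative settings, and 2 members had groups without overlap under all 4 scalings. Of 128 member values recomputed, 3 changed sign, each without DST-MNs 1. With 1 library left out, log2 changes ran from -0.45 to 1.24 for Cpa3, from -0.0246 to 1.05 for Cma1 and from -0.11 to 0.35 for Kit. The 76 other listed genes held 0 calls, 11 with DESeq2 (1018 of 14427 genes in all, against 112 with edgeR), 4 with the replicate block (123 in all), and 0 to 2 with 1 library left out (2 without Control 1). Total counts moved the median log2 change of all genes by 0.12, and log2(TPM + 1) and log2(TPM + 0.1) by 0.12 and 0.13. The log2 change of Slc18a2 turned positive with these, at 0.0841, 0.0845 and 0.0990, while the log2 change of Laptm5 turned negative with limma-voom (-0.0094) and the replicate block (-0.00896), and the log2 change of Pmel with limma-voom (-0.0241). With 1 library left out, Slc18a2 ran from -0.19 to 0.0603, Laptm5 from -0.26 to 0.19, Cd53 from -0.0635 to 0.19, Coro1a from -0.0426 to 0.24, Mlana from -0.29 to 2.62 and Pmel from -0.47 to 0.37. Libraries with the same replicate number deviated together with correlations of -0.02, 0.10 and 0.11. DST-MNs 1 correlated best with Control 3, while DST-MNs 2 and DST-MNs 3 correlated best with the Control library of their own number. The labels do not say that a number pairs libraries, so the numbers were not taken as pairs. Counts of 3 to 116 per library limit what Fcer1a, Ms4a2, Hdc and the tryptases can show.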
